A study of Mus musculus with 15 samples.

Results

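Antioxidant and peroxide defence was examined through 38 genes, which code for superoxide dismutases and catalase, glutathione peroxidases, peroxiredoxins, the thioredoxin system, glutathione synthesis and transfer, the NRF2 pathway with the heme oxygenases, and the ferritins. The genes were given by a list of symbols with no threshold on measured values, and the list was drawn up with earlier results of these data known. All 38 were found among the 55401 genes of the count files, and all 38 were among the 19536 genes with enough reads to be tested. RNA was sequenced from the hippocampus of 15 female mice aged 18 to 20 months. Tg2576 mice carry a transgene for human amyloid precursor protein with the Swedish mutation, expressed from the prion promoter, and the labels give their genotype as Tg2576 +/+. WT mice were littermates without the transgene, labelled Tg2576 -/-. Mice of both genotypes received docosahexaenoic acid (DHA), an omega-3 fatty acid, at 450 mg/kg by gavage every day for 5 weeks, or the sesame oil vehicle alone. The groups held 4 WT vehicle mice, 4 WT DHA mice, 4 Tg2576 vehicle mice and 3 Tg2576 DHA mice.

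Superoxide dismutases turn superoxide into hydrogen peroxide, which catalase, the glutathione peroxidases and the peroxiredoxins then remove. Peroxidases are recharged by glutathione or thioredoxin, and both in turn draw their electrons from NADPH. The transcription factor NRF2, held back by KEAP1 under resting conditions, raises many of these genes by binding antioxidant response elements in their promoters, and in brain the pathway is strong in astrocytes.

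Promoter sequence was available for 33 of the 38 genes as RefSeq windows on GRCm38.p6, from 250 bases before the transcription start to 50 bases after it. The core of the antioxidant response element, TGACNNNGC, was searched on both strands. It was found in the windows of 8 genes, or 24.2% of the 33, against 14% of all genes whose windows were searched. Windows of a single chromosome, which holds no member, were left out of the search. Counted by window, the match was in 8 of the 43 member windows and in 12.4% of all windows searched. The 7 stretches in which the match lay before the start are shown as examples of the element that NRF2 is known to bind. Capitals mark the match, which reads GCNNNGTCA where it lies on the opposite strand, and each sequence runs 5′ to 3′ along the strand of its gene.
Nfe2l2, chr2:75704870-75704913, minus strand: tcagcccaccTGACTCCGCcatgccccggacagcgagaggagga
Gstm5, chr3:107895787-107895845, plus strand: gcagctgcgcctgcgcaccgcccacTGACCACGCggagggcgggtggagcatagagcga
Gclm, chr3:122245398-122245456, plus strand: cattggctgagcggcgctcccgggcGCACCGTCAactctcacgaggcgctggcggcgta
Prdx1, chr4:116685441-116685499, plus strand: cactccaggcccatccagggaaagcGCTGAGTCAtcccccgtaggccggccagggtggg
Mgst1, chr6:138140446-138140504, plus strand: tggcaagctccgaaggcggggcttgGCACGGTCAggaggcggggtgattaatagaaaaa
Txnrd1, chr10:82859089-82859147, plus strand: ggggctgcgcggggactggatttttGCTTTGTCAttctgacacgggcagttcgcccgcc
Sod1, chr16:90220681-90220739, plus strand: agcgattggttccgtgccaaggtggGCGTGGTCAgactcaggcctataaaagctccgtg
In the eighth gene, Srxn1, the match lay after the start. The Gstm5 match ended 34 bases before its start site and those of Mgst1 and Sod1 ended 48 bases before theirs, while the match of Nfe2l2, the gene of NRF2 itself, lay 232 bases away. A match of these letters describes the sequence and does not show a binding site. None of the 8 genes passed a p of 0.01 in any of the 7 comparisons described below, where 0.353% to 3.85% of all genes did. For 8 genes, a count of 0 lies near those shares and says nothing particular about them. Mgst1 was the single one under 0.05, in the genotype comparison averaged over treatments.

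The deposited values were raw read counts, and levels are given as CPM, that is counts per 1000000 counts of a library whose size was scaled by the TMM method. Total counts per mouse ranged from 17372864 to 46596489, and the common coefficient of biological variation over all tested genes was 20.1%. All p-values other than those of the permutation tests come from the edgeR fit across all genes and are 2-sided. A gene was called where its unadjusted edgeR p lay under 0.01, and the adjusted p is the Benjamini-Hochberg value over the 19536 tested genes. Exact permutation tests on the log2 CPM of single members are 2-sided too, and can go no lower than p = 0.0286 with 4 against 4 or 4 against 3 mice. The genotype labels were checked on App, whose mouse gene collects reads from the transgene. App stood at 1572 to 1787 CPM in the 8 WT mice and at 2076 to 2787 CPM in the 7 Tg2576 mice, without overlap. Markers of hippocampal neurons (4 genes, Prox1 among them) summed to 416 to 564 CPM in the 15 mice, and no marker of the 10 cell type lists was at 0 in any group. Markers of choroid plexus, a tissue that lies against the hippocampus, ranged from 60.2 to 5797 CPM in sum and were at 3080 CPM or above in all 3 Tg2576 DHA mice. In bulk tissue, fewer cells of a type and less RNA per cell cannot be told apart.

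Antioxidant genes differed widely in level. Per kb of exonic length, Fth1, the heavy chain of the iron store ferritin, was the most abundant at 771 ± 142 CPM per kb (SD, n = 15 mice). Next came Gstm1, a glutathione transferase, at 145 ± 17.2 and Gpx4, which reduces lipid peroxides in membranes, at 133 ± 19.9 CPM per kb. The spreads of the last 2 over the mice overlapped, and a difference within mice was not tested. Prdx5 (99.8 ± 15.2) and Gstm5 (98.5 ± 15.8) followed at almost the same level per kb. At the lower end were Gpx7, with 2.27 ± 0.485 CPM per kb, and Slc7a11, the cystine transporter, with 2.52 ± 1.03. The order depends on the length used, that of all annotated exons of a gene, which was 13922 bases for Slc7a11. Its mean of 35.2 CPM was above the 24.2 CPM of Gss, which ranked higher per kb. In all, 10 members exceeded 50 CPM per kb and 13 were under 5. The summed CPM of the 38 genes ran from 4529 to 6614 across mice, and from 2447 to 3128 without Fth1. Within groups the coefficient of variation had a median of 14.2% over the members, with a low of 5.59% for Sod2 and a high of 63.3% for Gpx8.

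**Figure D1:**
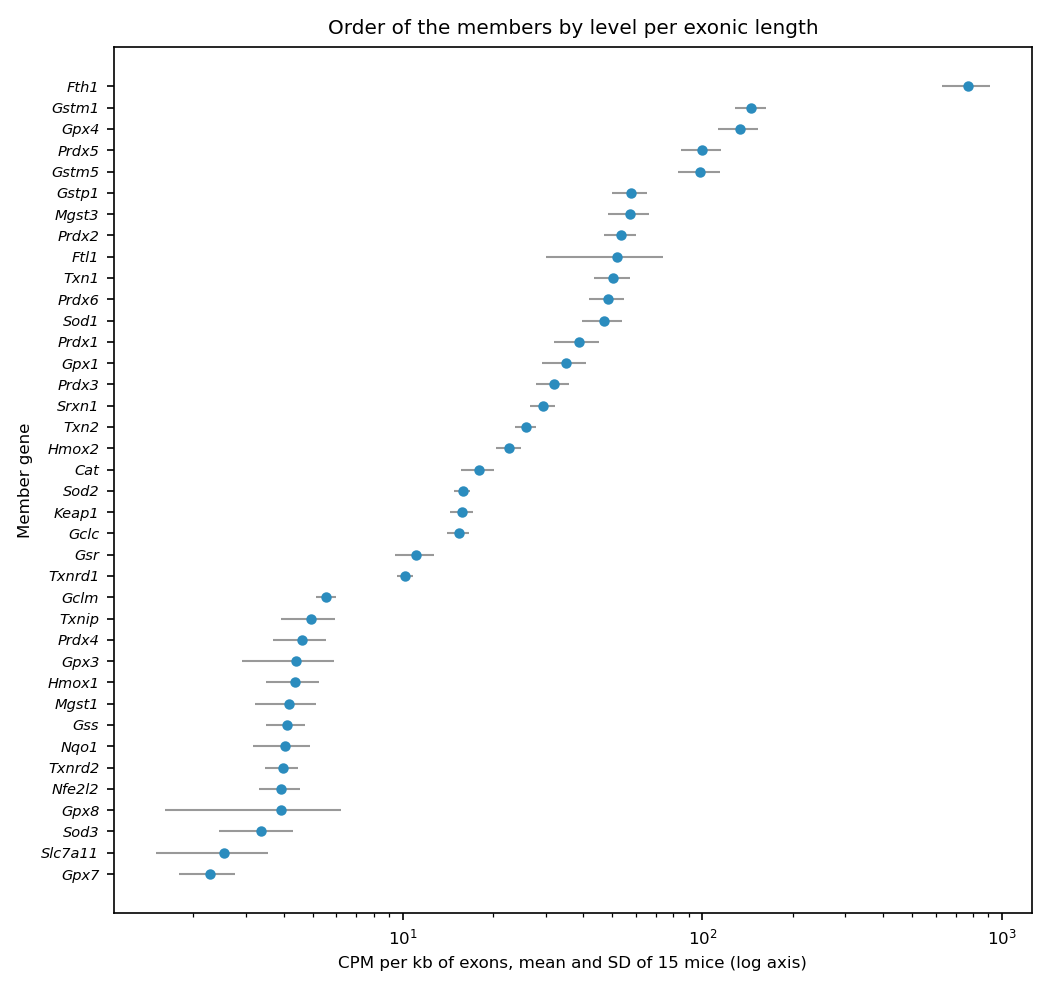
Level of each of the 38 genes per kb of exonic length on a log axis (points, mean of 15 mice; bars, SD). Fth1 stands apart at 771 CPM per kb, and 13 genes lie under 5.

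Only reads with a single place and a single gene were counted, so the levels of some members are uncertain. Fth1, Ftl1, Gpx4, Gstp1 and Gstm1 have near-identical copies elsewhere (the processed copy Gpx4-ps2 alone held 212 to 600 reads per mouse). Exons of 8 members overlap those of other genes over more than 10% of their bases, led by Hmox2 at 40.2% (shared with Cdip1), Ftl1 at 34.6% and Txnip at 19.4%. The counting used no strand, so reads of opposite genes cannot be separated there.

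In Tg2576 mice given vehicle, 4 of the 38 genes were called higher than in WT mice given vehicle: the peroxidases Gpx1 and Prdx6, the membrane-bound glutathione transferase and peroxidase Mgst3, and the inducible heme oxygenase Hmox1. Their fold changes lay between 1.29 and 1.41. Among all tested genes 3.09% were called in this comparison and 1.16% were called higher. None was called lower, against 1.93% of all genes. Of the members, 28 had a positive log2 fold change, as did 9775 of the 19536 tested genes, and their median was 0.16 against 0.00030 for all genes. The smallest adjusted p of a member was 0.185, so none passed an adjusted p of 0.05. The groups did not overlap for 3 members, Gpx1, Hmox1 and Slc7a11 (5.16% of all genes).

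Under DHA, no member was called between Tg2576 and WT mice in the edgeR test (1.75% of all genes were), and 3 had a p under 0.05 (6.86% of all genes). DESeq2 and limma-voom each called 1 member there, Nqo1. The median log2 difference was -0.012, with 18 members higher and 20 lower. DHA itself went with 1 called member in WT mice, Gpx1, which was higher (1.38% of all genes were called and 0.783% were called higher), and with none in Tg2576 mice (0.353%), where 1 member, Gstm1, had a p under 0.05 (3.16% of all genes) and DESeq2 and limma-voom also called none. The interaction, that is the DHA difference in Tg2576 mice minus that in WT mice, was called for Gpx1 alone (0.829% of all genes). Its median over the members was -0.12, against 0.0043 for all genes. Among genes of 1500 to 3000 bases above 10 CPM it was -0.12 too. Averaged over both treatments, Tg2576 mice had higher Prdx6 and Prdx4 and lower Gss than WT mice (3.85% of all genes were called, 1.94% higher and 1.91% lower). Averaged over both genotypes, DHA gave no call (0.870% of all genes), 1 member with a p under 0.05 (3.78%), and no call by DESeq2 or limma-voom either. The 4 comparisons of groups share their mice in pairs, so their values are set side by side and are not independent.

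**Figure D2:**
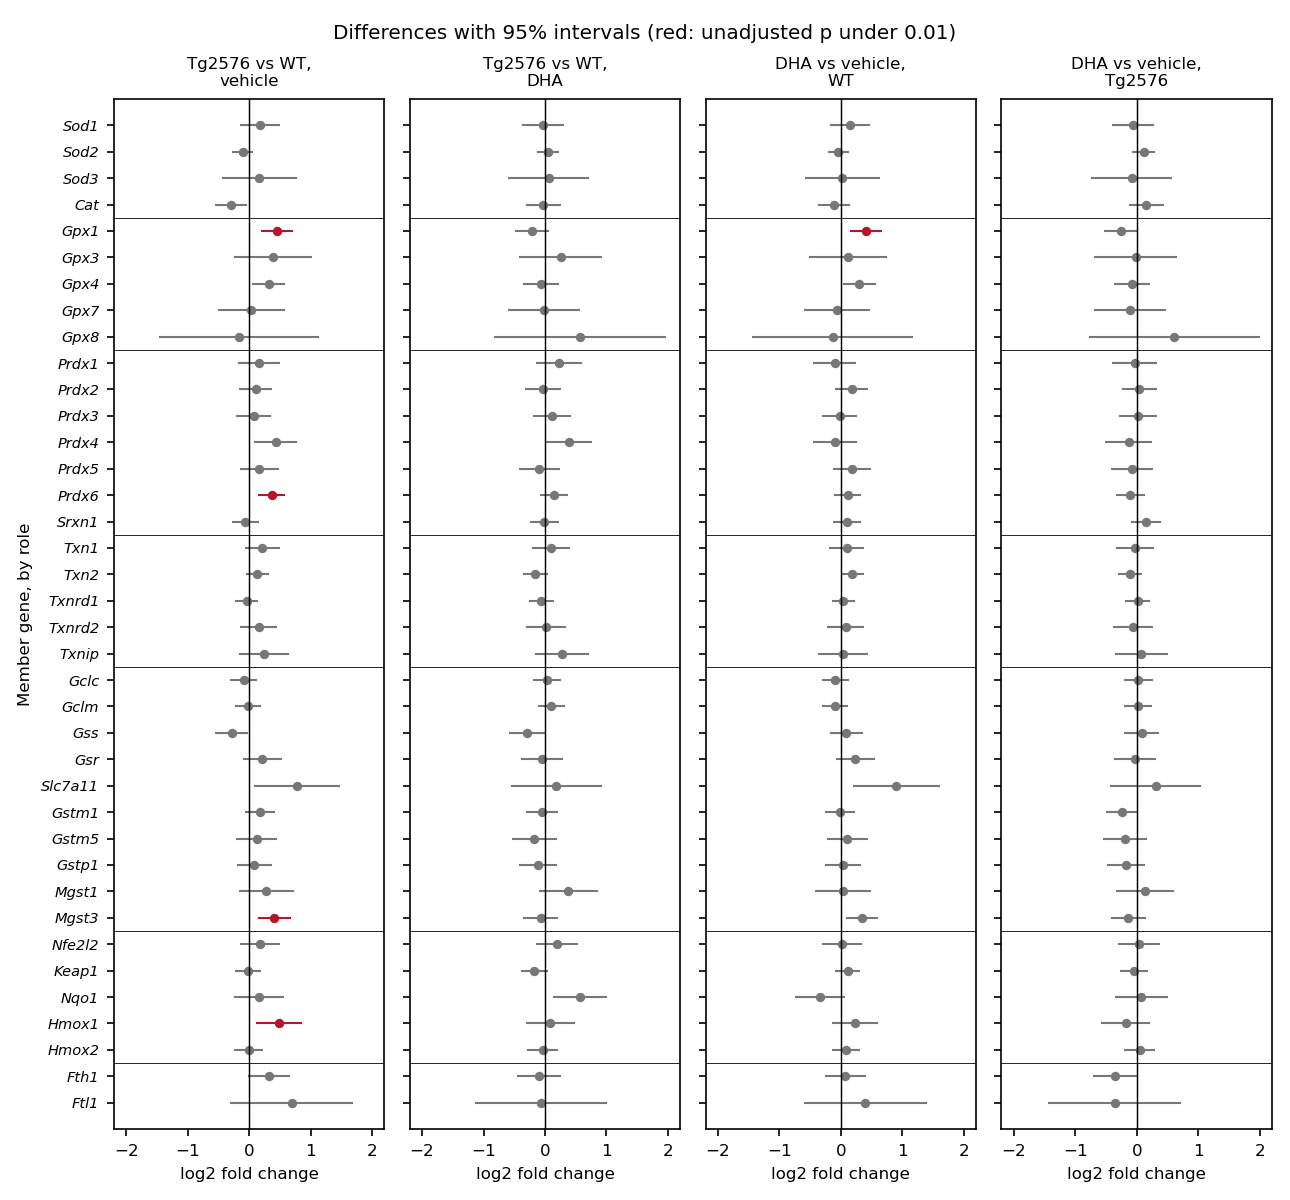
Log2 fold changes (points) with 95% intervals (lines) of the 38 genes in the 4 comparisons of groups, ordered by role from top to bottom. Red marks an unadjusted p under 0.01: Gpx1, Prdx6, Mgst3 and Hmox1 for genotype under vehicle, Gpx1 for DHA in WT mice, and none in the other 2 panels.

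Short transcripts as a whole varied between libraries, and many members are short (median exonic length 2683.5 bases, against 3693 for all tested genes, with 9 members under 1500). Among genes above 10 CPM, the 485 under 1500 bases had a median log2 difference of 0.15 between Tg2576 and WT vehicle mice, of 0.12 for DHA in WT mice, of -0.09 for DHA in Tg2576 mice and of -0.21 for the interaction. In the 1799 genes of 1500 to 3000 bases, where the members' median length lies, the same medians were 0.08, 0.08, -0.05 and -0.12. In the 4108 genes of 3000 to 6000 bases they were -0.01, 0.01, -0.01 and -0.03. In the 3939 genes over 6000 bases they were -0.10, -0.06, 0.04 and 0.10. Mice of one group differed by as much or more. The median deviation of the short genes from their mean over all mice was -0.22 to 0.07 on the log2 scale in WT vehicle mice, -0.14 to 0.19 in WT DHA mice, -0.18 to 0.32 in Tg2576 vehicle mice and -0.22 to 0.27 in Tg2576 DHA mice. An offset that levels each library's trend with gene length, chosen after seeing the data, was therefore run beside each result. With it, 5 members were called for genotype under vehicle (Gpx1, Prdx6, Mgst3, Slc7a11 and Cat, the last lower), 4 for DHA in WT mice (Gpx1, Gpx4, Mgst3 and Slc7a11), 2 for the interaction (Gpx1 and Mgst3) and 2 for genotype over both treatments (Prdx6 and Prdx4). With the same offset 3.20%, 1.70%, 0.973% and 4.35% of all genes were called in these 4 comparisons.

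**Figure D3:**
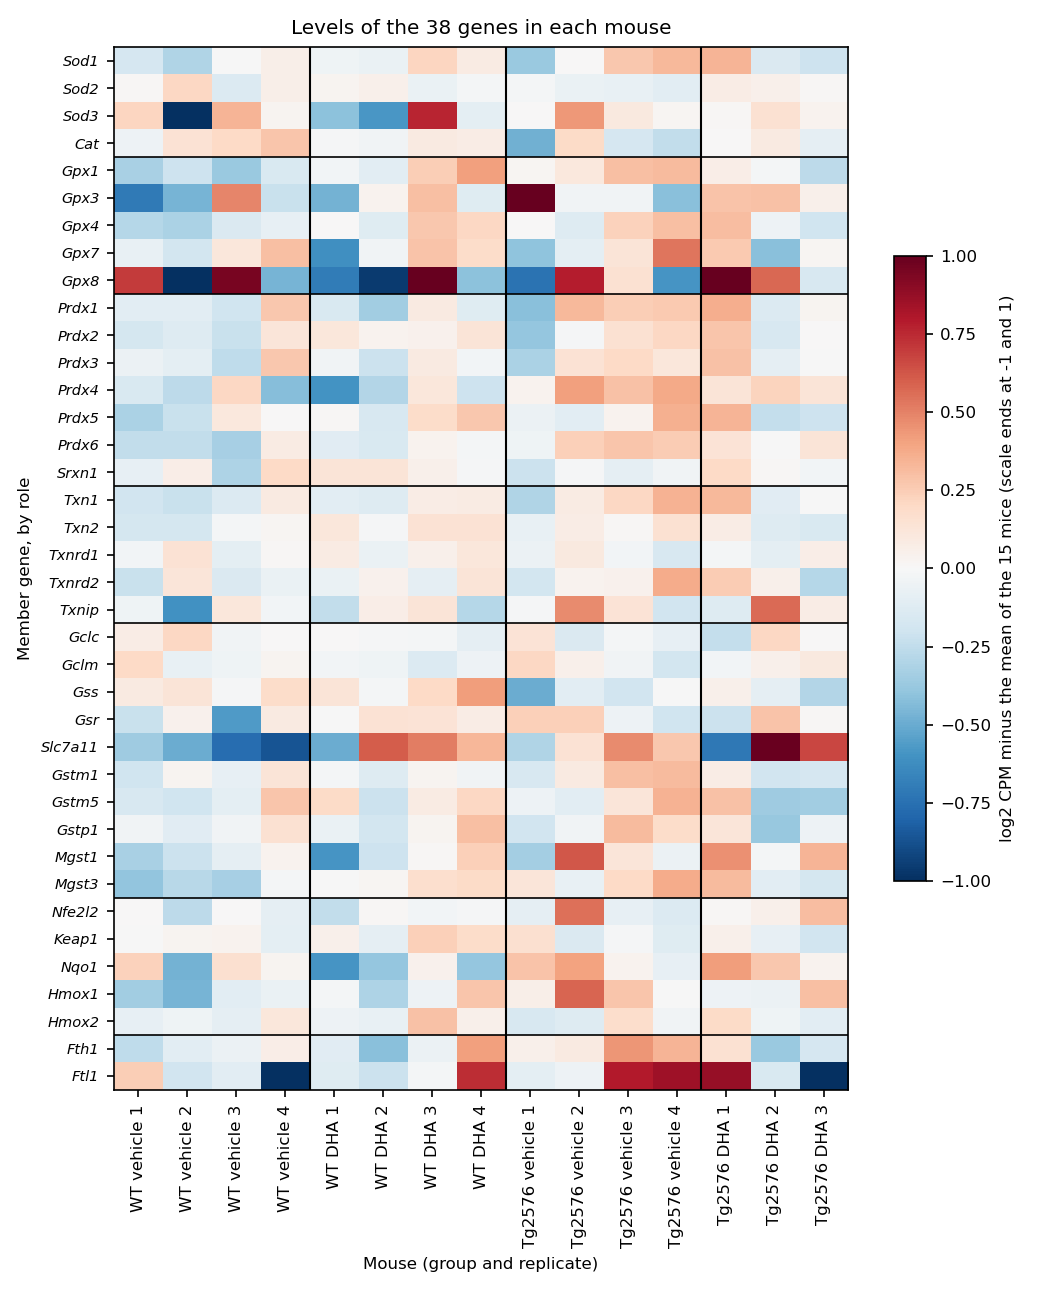
Level of each gene in each mouse as log2 CPM minus the mean of the 15 mice, with genes ordered by role and mice by group (lines separate roles and groups). Gpx1, Gpx4, Mgst3, Hmox1 and Slc7a11 are among the genes below their mean in all 4 WT vehicle mice. Gpx8, Ftl1 and Slc7a11 vary most between mice of one group.

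Superoxide dismutases and catalase gave no call. Cat codes for catalase, which breaks down hydrogen peroxide in peroxisomes. Cat was at 44.8, 51.4, 53.2 and 56.2 CPM in WT vehicle mice, 46.0, 45.3, 49.5 and 49.0 in WT DHA mice, 33.2, 53.0, 41.3 and 39.1 in Tg2576 vehicle mice, and 46.5, 49.5 and 43.7 in Tg2576 DHA mice, in the order of replicate numbers that is kept for the genes below. In the Tg2576 vehicle group 3 mice lay below all WT vehicle mice and replicate 2 lay among them. Its log2 fold change between these groups was -0.30 (SE 0.115, adjusted p = 0.367 by edgeR), and it was called, at -0.44 (adjusted p = 0.126), without Tg2576 vehicle replicate 2. Sod2, the mitochondrial superoxide dismutase and the steadiest member, stayed between 144 and 183 CPM in all mice. Its 3 Tg2576 DHA mice (167, 164 and 159 CPM) lay above the 4 Tg2576 vehicle mice (156, 151, 150 and 147), and it was the single member without overlap there (3.21% of all genes), at a log2 difference of 0.11 (SE 0.081, adjusted p = 0.999). In WT mice Sod2 was at 159, 183, 144 and 165 CPM under vehicle and at 161, 163, 151 and 156 under DHA. Cytosolic Sod1 ranged from 142 to 234 CPM and secreted Sod3 from 5.996 to 20.6 CPM, and the groups overlapped for both.

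Gpx1, the main glutathione peroxidase of the cytosol and mitochondria, gave 3 of the 9 calls. The gene lies at chr9:108338903-108340343 (GRCm38) and has 1441 bases of exon. Gpx1 was at 39.7, 43.2, 38.5 and 44.8 CPM in WT vehicle mice, 48.8, 46.3, 59.1 and 66.3 in WT DHA mice, 50.4, 53.6, 61.5 and 62.1 in Tg2576 vehicle mice, and 52.0, 49.1 and 41.5 in Tg2576 DHA mice. All 4 Tg2576 vehicle mice and all 4 WT DHA mice were above all 4 WT vehicle mice, while the Tg2576 DHA mice overlapped every other group. The log2 difference was 0.45 for genotype under vehicle (SE 0.116, p of 0.00109, adjusted p = 0.185, exact permutation p = 0.0286) and 0.41 for DHA in WT mice (SE 0.116, p of 0.00267, adjusted p = 0.560, exact permutation p = 0.0286). Both exact permutation p-values are the smallest that 4 against 4 mice allow.

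DHA in Tg2576 mice went the other way for Gpx1, at -0.26 (SE 0.125, adjusted p = 0.999), as did genotype under DHA, at -0.21 (SE 0.125, adjusted p = 0.790), and neither was called. The interaction was -0.67 (SE 0.171, p of 0.00113, adjusted p = 0.845). With the length offset these differences were 0.36 for genotype under vehicle (adjusted p = 0.180), 0.35 for DHA in WT mice (adjusted p = 0.441) and -0.56 for the interaction (adjusted p = 0.824), each still called. The DHA call in WT mice was lost without either of its highest mice, at a p of 0.0101 without WT DHA replicate 3 and of 0.0160 without replicate 4.

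Of the other glutathione peroxidases, Gpx4 had a pattern of the same order. Gpx4 was at 187, 182, 205 and 215 CPM in WT vehicle mice, 227, 209, 274 and 261 in WT DHA mice, 228, 208, 266 and 280 in Tg2576 vehicle mice, and 282, 219 and 198 in Tg2576 DHA mice. The WT vehicle mice were the lowest group on average, and every pair of groups overlapped. The log2 difference was 0.32 for genotype under vehicle (SE 0.121, adjusted p = 0.365) and 0.30 for DHA in WT mice (SE 0.121, adjusted p = 0.808), and the interaction was -0.38 (adjusted p = 0.845). Averaged over genotypes, DHA gave 0.11 (adjusted p = 0.9998), or 0.04 without Tg2576 DHA replicate 1. Gpx3, the secreted form, was at 4.65, 5.51, 10.7 and 6.53 CPM in WT vehicle mice, 5.46, 7.79, 9.41 and 7.004 in WT DHA mice, 15.5, 7.43, 7.43 and 5.69 in Tg2576 vehicle mice, and 9.29, 9.37 and 7.90 in Tg2576 DHA mice. Tg2576 vehicle replicate 1 was the highest of all, and the genotype difference over treatments was 0.32 (SE 0.213, adjusted p = 0.615), or 0.13 without that mouse.

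Gpx8, a peroxidase of the endoplasmic reticulum, was the most variable member, at 1.06 to 8.48 CPM, and Gpx7, its relative in the same compartment, was at 1.85 to 4.19 CPM. Neither had a p under 0.05. Gpx8 moved with the choroid plexus markers. In the 7 libraries whose 5 markers summed to over 2000 CPM, a limit set after the values were seen, Gpx8 was at 3.10 to 8.48 CPM, and in the other 8 it was at 1.06 to 3.87 CPM. Sod3 was at 12.2 to 20.6 CPM in the former and 5.996 to 12.98 CPM in the latter, whereas Gpx3 was at 4.65 to 10.7 and 5.46 to 15.5 CPM. The part of choroid plexus tissue in these levels was not tested.

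**Figure D4:**
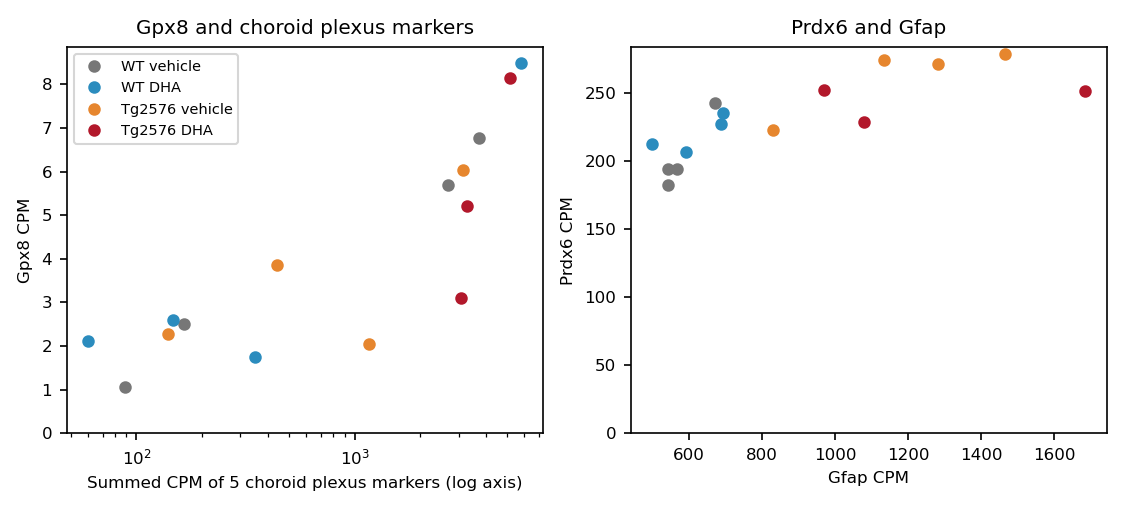
CPM of Gpx8 against the summed CPM of 5 choroid plexus markers on a log axis (left) and CPM of Prdx6 against that of Gfap (right), 1 point per mouse, coloured by group. Gpx8 is at 3.10 to 8.48 CPM in the 7 libraries with a marker sum above 2000 CPM, and Gfap is higher in the 7 Tg2576 mice, at 830.4 CPM or above, than in the 8 WT mice.

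Peroxiredoxins reduce peroxides with the help of thioredoxin, except Prdx6, which uses glutathione and is abundant in astrocytes. Prdx6 (chr1:161240112-161251219, 4804 bases of exon) was at 194, 194, 183 and 243 CPM in WT vehicle mice, 212, 207, 235 and 227 in WT DHA mice, 223, 272, 279 and 274 in Tg2576 vehicle mice, and 252, 229 and 251 in Tg2576 DHA mice. Of the Tg2576 vehicle mice, 3 lay above all WT mice, and replicate 1 lay below the highest WT vehicle mouse. The genotype difference was 0.36 under vehicle (SE 0.096, p of 0.00140, adjusted p = 0.198, exact permutation p = 0.0571) and 0.26 over both treatments (SE 0.070, p of 0.00200, adjusted p = 0.155). Under DHA it was 0.15 (adjusted p = 0.829). With the length offset the values were 0.38 (adjusted p = 0.157) under vehicle and 0.27 (adjusted p = 0.0980) over treatments.

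Gfap, the intermediate filament of reactive astrocytes, and plaque-associated microglial markers also moved with genotype. Gfap was at 499.9 to 693 CPM in the 8 WT mice, 830.4 to 1465 in Tg2576 vehicle mice and 969.5 to 1686 in Tg2576 DHA mice, and under vehicle it was 1.02 higher on the log2 scale (p of 3.63e-05, adjusted p = 0.0766). It was the only one of 5 astrocyte markers called there (3.09% of all genes were). The sum of the other 4 overlapped between the genotypes, at 752 to 904 CPM in WT and 692 to 943 CPM in Tg2576 mice, and the median log2 difference of the 5 was -0.07 under vehicle. The 5 plaque-associated microglial markers all had positive differences under vehicle, and 2 were called (1.16% of all genes were called higher). These 5 summed to 16.5 to 33.9 CPM in WT mice, 27.0 to 83.2 in Tg2576 vehicle mice and 35.4 to 76.8 in Tg2576 DHA mice. Of 5 general microglial markers, 3 were higher and 2 lower under vehicle and none was called by edgeR (smallest adjusted p = 0.592). Between the genotypes under DHA, 3 of them were called higher (1.06% of all genes). Tg2576 vehicle replicate 1 had the lowest Gfap of the Tg2576 mice and a plaque-associated sum of 27.0 CPM, within the WT range. The part of these cells in the members' differences was not tested. Tg2576 vehicle replicate 1, singled out by these markers, also lay below its group mean for all 4 members called under vehicle. Leaving it out therefore raises their differences in any case. Without that mouse, the difference under vehicle was 0.43 for Prdx6 (adjusted p = 0.0899), 0.51 for Gpx1 (adjusted p = 0.117), 0.42 for Mgst3 (adjusted p = 0.170) and 0.55 for Hmox1 (adjusted p = 0.184), and all 4 stayed called.

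Prdx4, the peroxiredoxin of the endoplasmic reticulum (chrX:155323918-155340754), was called over both treatments. Prdx4 was at 8.59, 7.93, 11.05 and 7.10 CPM in WT vehicle mice, 6.29, 7.79, 10.3 and 8.25 in WT DHA mice, 9.76, 12.7, 11.7 and 12.4 in Tg2576 vehicle mice, and 10.4, 11.2 and 10.5 in Tg2576 DHA mice. The 3 Tg2576 DHA mice lay above all WT DHA mice, and the vehicle groups overlapped through WT vehicle replicate 3 and Tg2576 vehicle replicate 1. The genotype difference was 0.43 under vehicle (SE 0.161, adjusted p = 0.360), 0.39 under DHA (SE 0.174, adjusted p = 0.702) and 0.41 over both (SE 0.118, p of 0.00295, adjusted p = 0.174). Prdx4 and Nfe2l2 were the 2 members without overlap between genotypes under DHA (8.56% of all genes).

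The remaining peroxiredoxins, Prdx1, Prdx2, Prdx3 and Prdx5, had no p under 0.05 in any comparison, with log2 differences from -0.26 to 0.23. Their levels were 86.6 to 149, 124 to 196, 37.6 to 57.3 and 170 to 271 CPM. Srxn1 codes for sulfiredoxin, which restores overoxidised peroxiredoxins. Srxn1 was at 77.8, 86.3, 66.5 and 94.4 CPM in WT vehicle mice, 90.1, 90.2, 85.7 and 81.6 in WT DHA mice, 71.2, 82.0, 77.6 and 80.3 in Tg2576 vehicle mice, and 94.9, 83.0 and 81.0 in Tg2576 DHA mice. Tg2576 DHA replicates 1 and 2 lay above all Tg2576 vehicle mice, and replicate 3 lay below the highest of them. The DHA difference over genotypes was 0.12 (SE 0.072, adjusted p = 0.9998).

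The thioredoxin system gave no call. Txn2, the mitochondrial thioredoxin, was at 95.4, 95.6, 106 and 109 CPM in WT vehicle mice, 117, 107, 119 and 119 in WT DHA mice, 102, 114, 109 and 120 in Tg2576 vehicle mice, and 114, 98.9 and 97.3 in Tg2576 DHA mice. All pairs of groups overlapped. DHA gave 0.18 in WT mice (SE 0.082, adjusted p = 0.835) and -0.11 in Tg2576 mice (SE 0.088, adjusted p = 0.999), with an interaction of -0.29 (SE 0.120, adjusted p = 0.845), and 0.04 over genotypes (adjusted p = 0.9998).

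Txnip, the inhibitor of thioredoxin, was at 14.6, 9.87, 16.4 and 14.8 CPM in WT vehicle mice, 12.7, 15.8, 16.4 and 12.4 in WT DHA mice, 14.9, 21.0, 16.5 and 13.2 in Tg2576 vehicle mice, and 13.7, 22.4 and 15.8 in Tg2576 DHA mice. The groups overlapped, and the genotype difference over treatments was 0.26 (SE 0.135, adjusted p = 0.499), or 0.15 without Tg2576 DHA replicate 2. Txn1, the cytosolic thioredoxin, was at 42.5 to 66.5 CPM. The reductases Txnrd1 and Txnrd2, which reload the thioredoxins, were at 64.4 to 79.6 and 14.2 to 22.4 CPM, and none of these 3 genes had a p under 0.05.

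In glutathione metabolism, Mgst3 was called higher for genotype under vehicle, and Gss was called lower for genotype over both treatments. Mgst3 (chr1:167371966-167393841, 1097 bases of exon) was at 47.1, 51.4, 49.4 and 61.3 CPM in WT vehicle mice, 61.9, 63.0, 69.8 and 71.0 in WT DHA mice, 67.7, 58.9, 71.3 and 80.4 in Tg2576 vehicle mice, and 77.2, 57.8 and 54.9 in Tg2576 DHA mice. All WT DHA mice were above all WT vehicle mice, which for the members held also for Gpx1 (5.02% of all genes did not overlap), while Tg2576 vehicle replicate 2 fell among the WT vehicle mice. The difference was 0.41 for genotype under vehicle (SE 0.119, p of 0.00306, adjusted p = 0.224, exact permutation p = 0.0571), 0.34 for DHA in WT mice (SE 0.120, adjusted p = 0.700) and -0.48 for the interaction (SE 0.176, adjusted p = 0.845). With the length offset the 3 values were 0.32 (adjusted p = 0.199), 0.29 (adjusted p = 0.489) and -0.38 (adjusted p = 0.824), all called. Without an offset, the first lost its call, at a p of 0.0102 to 0.0130, without WT vehicle replicate 1, WT vehicle replicate 3 or Tg2576 vehicle replicate 4.

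Gss, glutathione synthetase (chr2:155563181-155592810), was at 25.5, 26.3, 23.8 and 27.2 CPM in WT vehicle mice, 26.1, 23.7, 27.5 and 32.0 in WT DHA mice, 17.0, 22.3, 21.0 and 23.9 in Tg2576 vehicle mice, and 24.9, 22.5 and 19.5 in Tg2576 DHA mice. Within each treatment 1 Tg2576 mouse lay above the lowest WT mouse and the others lay below all of them. The difference was -0.29 under vehicle (adjusted p = 0.395), -0.29 under DHA (adjusted p = 0.698) and -0.29 over both (SE 0.088, p of 0.00406, adjusted p = 0.185). Exons of Gss overlap Acss2 and antisense genes over 15.4% of their bases. The call was lost with the length offset, at a p of 0.0108, and without WT vehicle replicate 2, WT DHA replicate 4 or Tg2576 DHA replicate 3, at a p of 0.0107 to 0.0160.

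Slc7a11, which brings in cystine for glutathione synthesis, had the largest differences of all members under vehicle and for DHA in WT mice, with the widest error among them but for Gpx8 and Ftl1. Slc7a11 was at 25.3, 23.0, 19.2 and 17.8 CPM in WT vehicle mice, 23.0, 49.4, 46.3 and 40.9 in WT DHA mice, 26.3, 36.0, 45.0 and 39.1 in Tg2576 vehicle mice, and 19.7, 64.6 and 51.7 in Tg2576 DHA mice. In each of the 3 latter groups, replicate 1 lay close to the WT vehicle mice and the others lay above 35 CPM. The difference was 0.78 for genotype under vehicle (SE 0.319, adjusted p = 0.398), 0.90 for DHA in WT mice (SE 0.319, adjusted p = 0.743), 0.31 for DHA in Tg2576 mice (SE 0.338, adjusted p = 0.999) and 0.61 for DHA over genotypes (SE 0.232, adjusted p = 0.9998). Without Tg2576 DHA replicate 1 the last was 0.79 (adjusted p = 0.547), and without WT DHA replicate 1 it was 0.70 (adjusted p = 0.950), both of which were calls.

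Markers of meninges and fibroblasts, cells known to express Slc7a11, were lowest in replicate 1 of the WT DHA and Tg2576 DHA groups too. Their 5 genes summed to 32.9, 71.2, 53.5 and 38.2 CPM in WT DHA mice, 35.9, 97.3, 64.0 and 22.0 in Tg2576 vehicle mice, 37.4, 101 and 75.9 in Tg2576 DHA mice, and 32.4, 25.9, 53.7 and 40.0 in WT vehicle mice. In the WT vehicle and Tg2576 vehicle mice Slc7a11 did not follow that order, and the lowest marker sum of the latter was that of replicate 4. The part of meningeal tissue in its level was not tested.

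The other 7 genes of glutathione metabolism gave no call. Gclc and Gclm, the subunits of the rate-limiting glutamate-cysteine ligase, were at 48.8 to 66.6 and 30.6 to 40.2 CPM with log2 differences from -0.10 to 0.12. Gsr, the glutathione reductase, was at 20.3 to 36.7 CPM. Among the transferases, Gstm1 was at 185 to 265 CPM, Gstm5 at 97.4 to 158, Gstp1 at 67.9 to 110 and Mgst1 at 5.41 to 12.7. A p under 0.05 was seen for Gstm1 with DHA in Tg2576 mice, at -0.24 (SE 0.114, adjusted p = 0.999), which was called without Tg2576 vehicle replicate 1, and for Mgst1 with genotype over treatments, at 0.33 (SE 0.150, adjusted p = 0.409).

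**Figure D5:**
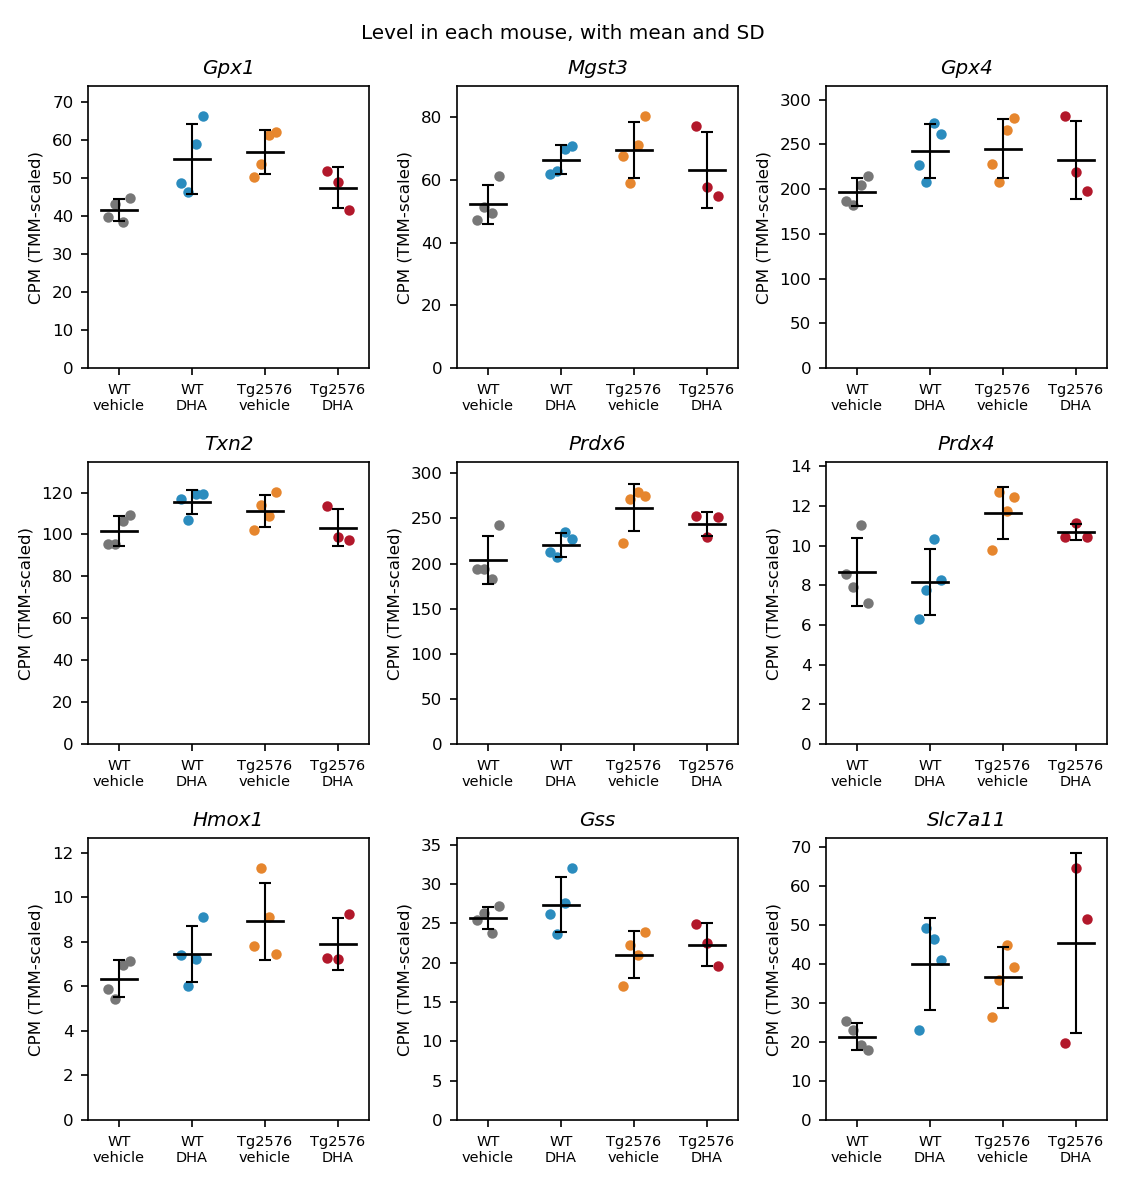
CPM of 9 members in each mouse (points) with the mean (bar) and SD (whiskers) of each group, on axes that start at 0. Gpx1 and Mgst3 are lowest in WT vehicle mice, Prdx6 and Prdx4 are higher and Gss lower in Tg2576 mice, and Slc7a11 has 1 low mouse in each group other than WT vehicle.

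In the NRF2 pathway, Nfe2l2 and Keap1 gave no p under 0.05. Nfe2l2 was at 12.3 to 21.7 CPM, and its 3 Tg2576 DHA mice (14.9, 15.3 and 18.3) lay just above the WT DHA mice (12.4 to 14.9), at a log2 difference of 0.20 (SE 0.157, adjusted p = 0.844). Keap1 was at 64.4 to 86.5 CPM. Of the classic NRF2 target genes, Hmox1, which breaks down heme, was called for genotype under vehicle. Hmox1 (chr8:75093621-75100589) was at 5.88, 5.42, 6.96 and 7.16 CPM in WT vehicle mice, 7.395, 6.04, 7.24 and 9.12 in WT DHA mice, 7.83, 11.3, 9.11 and 7.48 in Tg2576 vehicle mice, and 7.27, 7.21 and 9.25 in Tg2576 DHA mice.

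All Tg2576 vehicle mice were above all WT vehicle mice for Hmox1, the nearest by 0.32 CPM, and the DHA groups overlapped. The difference was 0.49 under vehicle (SE 0.170, p of 0.00991, adjusted p = 0.322, exact permutation p = 0.0286) and the interaction was -0.40 (adjusted p = 0.845). For the DHA groups the genotype difference was 0.09 (adjusted p = 0.949). The call lay at the threshold: it was lost in 4 of 7 other settings, the length offset among them (at a p of 0.0230), and without any of 9 of the 15 mice, where the p reached 0.0539 without Tg2576 vehicle replicate 2. Hmox2, the constitutive form, was at 44.8 to 61.2 CPM with no p under 0.05.

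Nqo1, the quinone reductase, was at 7.21, 4.40, 6.86 and 6.26 CPM in WT vehicle mice, 4.05, 4.68, 6.31 and 4.65 in WT DHA mice, 7.49, 8.11, 6.27 and 5.77 in Tg2576 vehicle mice, and 8.21, 7.39 and 6.27 in Tg2576 DHA mice. The 3 Tg2576 DHA mice lay above the WT DHA mice but for WT DHA replicate 3. The genotype difference was 0.16 under vehicle (adjusted p = 0.805), 0.57 under DHA (SE 0.201, adjusted p = 0.586) and 0.36 over both (SE 0.137, adjusted p = 0.308), and DHA gave -0.13 over genotypes (adjusted p = 0.9998). Without WT DHA replicate 3, genotype under DHA gave 0.71 (adjusted p = 0.545) and was called.

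The ferritins store iron and so limit its reaction with peroxide. Fth1 was at 2207, 2453, 2527 and 2757 CPM in WT vehicle mice, 2432, 1976, 2531 and 3507 in WT DHA mice, 2728, 2798, 3572 and 3328 in Tg2576 vehicle mice, and 2935, 2040 and 2352 in Tg2576 DHA mice. All pairs of groups overlapped. The difference was 0.32 for genotype under vehicle (SE 0.152, adjusted p = 0.464), -0.35 for DHA in Tg2576 mice (SE 0.165, adjusted p = 0.999), 0.11 for genotype over treatments (adjusted p = 0.775) and -0.14 for DHA over genotypes (adjusted p = 0.9998). With 1 mouse left out, the last 2 ran from 0.04 (without Tg2576 DHA replicate 1) to 0.20 (without WT DHA replicate 4) and from -0.07 (without Tg2576 DHA replicate 2) to -0.23 (without WT DHA replicate 4). Ftl1, the light chain, ranged from 23.6 to 116 CPM, with no p under 0.05 and a coefficient of variation within groups of 45.0%.

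A pair of further lists was read beside the members, namely 57 tested genes of redox metabolism outside the 38 and 8 tested genes of the NADPH oxidase, the enzyme with which phagocytes make superoxide. Of the redox genes, 4 were called higher and none lower under vehicle in Tg2576 mice (1.16% and 1.93% of all genes), led by Maff, a small MAF partner of NRF2, at 1.90 (SE 0.414, p of 0.00025, adjusted p = 0.158). Maff was at 1.002 ± 0.0563 CPM in WT vehicle and 3.79 ± 3.24 CPM in Tg2576 vehicle mice (SD, n = 4 each). Idh2, a mitochondrial source of NADPH, was at 0.32 (p of 0.0034, adjusted p = 0.240) and the metallothionein Mt2 at 0.50 (p of 0.0064, adjusted p = 0.291). Under DHA, 2 were called higher in Tg2576 than in WT mice (1.06% of all genes), Osgin1 at 1.15 (p of 0.0052, adjusted p = 0.548) and Cul3, the ligase that acts with KEAP1 on NRF2, at 0.33 (p of 0.0059, adjusted p = 0.560). DHA gave no call in either genotype in this list by edgeR (1.38% of all genes in WT and 0.353% in Tg2576 mice). A p under 0.05 was seen for 1 gene in WT mice (5.92% of all genes) and for 5 in Tg2576 mice (3.16%).

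Of the NADPH oxidase genes, 2 of 8 were called higher under vehicle in Tg2576 mice (1.16% of all genes). They were Ncf1 at 0.50 (p of 0.0016, adjusted p = 0.198) and Rac2 at 0.57 (p of 0.0025, adjusted p = 0.218). All 8 had a positive difference, as did 9775 of the 19536 tested genes. Over both treatments 4 of 8 were called higher (1.94% of all genes), with Rac2 at 0.52 (SE 0.120, p of 0.00044, adjusted p = 0.0883) the first. None was called for DHA in either genotype by edgeR (1.38% of all genes in WT and 0.353% in Tg2576 mice). A p under 0.05 was seen for none in WT mice (5.92% of all genes) and for 1 in Tg2576 mice (3.16%). These genes are made mostly by microglia and other phagocytes, and the part of such cells in their levels was not tested.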

How the data were processed

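Hippocampal RNA-seq of 15 mice was read as the deposited raw counts, which the authors made with STAR 2.6.1c and featureCounts 1.6.0 on GENCODE vM25 of GRCm38, without strand, per the file headers and the submitters' processing notes. The paper names a TruSeq stranded kit and the labels a SMARTER kit. Symbols were matched by gene ID for 55141 of 55401 genes through GENCODE M21. In edgeR 4.0.16 (R 4.3.3), filterByExpr (minimum count 10) kept 19536 genes, TMM factors ranged from 0.961 to 1.03, and a robust quasi-likelihood fit with 1 coefficient per group over all 15 mice gave 7 two-sided comparisons. Standard errors are the log2 fold change over the square root of F. Log2 CPM used a prior count of 2 in figures and permutation tests. Total counts of 17372864 to 46596489 per mouse bear on the precision, beside the spread between mice. The edgeR p-values set each group difference against a spread between mice that is estimated over all 4 groups and moderated across genes.

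Full values are given for members with a p under 0.01 in any comparison and for the member of each role with the lowest p in the genotype and in the DHA comparison averaged over the other factor, and of other lists at most 3 called genes. The members and lists were chosen with earlier results of these data known. Alternatives were DESeq2 1.42.0, limma-voom (limma 3.58.1), no TMM factors, no filter, a replicate block, each mouse left out, and, chosen after seeing the data, offsets for gene length and GC content (lowess span 0.3). The workflow was tested on simulated data. Figures used matplotlib 3.10.9.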

Additional observations from a re-analysis of the deposited data

Results flagged for a closer look

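The interaction of Gpx1 was called, at -0.67 on the log2 scale (edgeR p of 0.00113, adjusted p = 0.845), as were 0.829% of all genes. It did not pass an adjusted p of 0.05. Gpx1 has 1441 bases of exon, and the 485 genes under 1500 bases had a median interaction of -0.21. The Gpx1 interaction stayed called in all 7 other settings, the length offset among them, at -0.67 to -0.55. How much of its value goes with gene length was not tested beyond that. Single mice stood far from the others of their group by Dixon's criterion for 4 mice in 6 of 114 groups of values, and chance flags about 1 in 20 groups. These were Gpx8 at 8.48 CPM in WT DHA replicate 3, Prdx1 at 86.6 CPM and Prdx6 at 223 CPM in Tg2576 vehicle replicate 1 (both low), Nfe2l2 at 12.4 CPM in WT DHA replicate 1 (low) and at 21.7 CPM in Tg2576 vehicle replicate 2, and Ftl1 at 106 CPM in WT DHA replicate 4.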

How the results depend on the processing

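No member passed an adjusted p of 0.05 by edgeR, and by DESeq2 Gpx1 and Prdx6 did under vehicle (adjusted p = 0.0362 for each) and Prdx6 (0.0364) and Prdx4 (0.0478) did for genotype over treatments. Of 858 fits of 39 single results, 784 kept their direction and side of the threshold, 22 lost the call, 52 gained one and 0 reversed. The 9 calls were kept in 176 of 198 such fits. The number of members called for genotype under DHA was 0 and became 1 by DESeq2 and 1 by limma-voom. For DHA in WT mice it was 1 and became 3 by DESeq2, 2 without the filter on low counts, 4 with the length offset and 3 with the GC offset. For the interaction it was 1 and became 2 without the filter and 2 with the length offset. With 1 mouse left out, the counts ranged from 3 to 5 for genotype under vehicle, 0 to 2 for genotype under DHA (the highest without WT DHA replicate 3), 0 to 4 for DHA in WT mice (0 without WT DHA replicate 3 or 4, 4 without Tg2576 DHA replicate 1), 0 to 1 for DHA in Tg2576 mice, 1 to 4 for the interaction (4 without Tg2576 DHA replicate 1), 2 to 4 for genotype over treatments and 0 to 1 for DHA over genotypes. The share of all genes called was taken for the main fit and the length offset only. Counts of members in the other fits can therefore not be set against all genes. The cause of these shifts was not tested.

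With the replicate number as a block, the members called were 3 for genotype under vehicle (Hmox1 was lost), 2 for DHA in WT mice (Mgst3 was gained) and as without the block in the other comparisons. The labels do not say whether mice with the same number share a litter, day or batch. Deviations of mice with the same number correlated at -0.24 to 0.21 over 14 pairs, with 3 above 0.1. Such correlations cannot show whether the numbers carry a pairing. Groups of 3 or 4 mice limit what single members can show.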
